A study of Mus musculus with 2 samples.

Results

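Methylation of CpG cytosines was examined in 10 genes of the S-adenosylmethionine cycle in mouse myotubes, the multinucleate muscle cells that myoblasts form in culture. The genes were Ahcy, Ahcyl1, Ahcyl2, Mat1a, Mat2a, Mat2b, Mtr, Mtrr, Cbs and Bhmt, chosen by name from the 55413 genes of the annotation and not by any measured value. Their members were the CpG cytosines read at least 5 times in each library, lying outside the MspI (CCGG) and TaqI (TCGA) recognition sites and either within 1 kb of the annotated gene start (the start window) or in the rest of the gene (the body). This gave 837 cytosines at 482 CpGs of 1850635 such cytosines in the genome, 613 of them in start windows and 224 in bodies.

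The cells were myotubes grown from C3H myoblasts and transfected either with a control siRNA (siCon) or with an siRNA (siH19) that targets H19, a long non-coding RNA, and DNA was taken 48 h later. Each condition was 1 library of reduced representation bisulfite sequencing, in which DNA is cut with MspI and TaqI, sized, treated with bisulfite and sequenced. Unmethylated cytosine is then read as T and methylated cytosine as C, so the methylation level is the share of reads with C. The question put to these genes was whether the methylation of the genes that make, use and clear S-adenosylmethionine differed after H19 knockdown. RNA was not measured in these libraries, so neither the loss of H19 nor the transcript levels of the 10 genes could be checked here, and with 1 library per condition every test compares 2 libraries and not the conditions.

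S-adenosylmethionine is the methyl donor of nearly all cellular methyltransferases, the DNA methyltransferases included. Giving up its methyl group turns it into S-adenosylhomocysteine, which inhibits these same enzymes and is removed by S-adenosylhomocysteine hydrolase (SAHH, encoded by Ahcy), the enzyme around which the H19 study was built. The homocysteine so released is either remethylated to methionine, from which S-adenosylmethionine is made anew, or drained off through transsulfuration. Muscle, like most tissues outside the liver, relies on the enzymes encoded by Mat2a and Mtr rather than on the liver forms encoded by Mat1a and Bhmt.

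The siCon library held 5453019 CpG cytosines and the siH19 library 5266846, with 104999613 and 106372792 reads over them and median depths of 12 and 13 reads. At the 837 cytosines the median depth was 29 reads in siCon and 25 reads in siH19. Reads came from the ends of short fragments and left gaps: of the CpG cytosines outside the cutting sites, between 15.4% (Bhmt) and 63.8% (Mat2a) could be compared in the start windows and between 0% (Mat1a and Mat2a) and 10.9% (Mat2b) in the bodies. Among start windows of muscle genes, Des and Ckm were at 3.98% and 7.98% in siCon while Myod1 was at 34.1% and Myog, with 6 cytosines, at 72.7%. Pou5f1 and Epcam, which mark stem and epithelial cells, were at 46.9% and 59.3%. Start window methylation does not measure expression, so these values do not check the cell type.

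Most of these genes had nearly unmethylated start windows, 7 of the 8 bodies that could be read were more methylated than their start windows, and no difference between the libraries passed the call. In siCon the start window was below 10% methylated in 8 of 10 genes, the exceptions being Mat2b at 19.3% and Cbs at 30.2%. Over all 19476 tested start windows 60.3% were below 10%. The bodies of 8 genes had cytosines to compare, and their levels ran from 9.74% (Mat2b) to 94.1% (Ahcy) in siCon. None of the 10 start windows and none of the 8 bodies passed the call, for which the adjusted p-value had to be under 0.05 and the difference 10 percentage points or more. The 8 start windows below 10% in siCon had no room for a fall of that size, so only a rise could pass the call there. Across the genome 0.626% of start windows and 0.316% of bodies passed it, so a count of 0 is near the background. The test was the Mantel-Haenszel chi-square test, which compares each cytosine with itself in the other library and then combines them, with Benjamini-Hochberg adjustment over all genes.

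**Figure D1:**
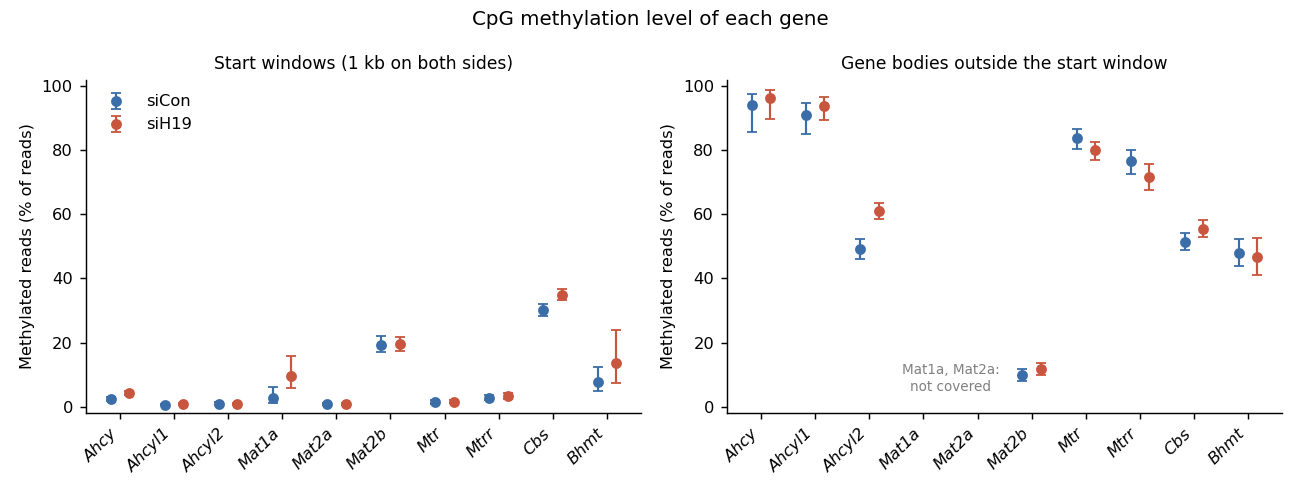
Methylated reads as a percent of all reads (y axis) for each of the 10 genes (x axis) in start windows (left) and bodies (right). Points are the single libraries and bars are Wilson 95% intervals for counting error. Cbs and Mat2b stand highest among the start windows in both libraries, and the Ahcyl2 body shows the widest gap between libraries, 49.1% against 61.2% of summed reads.

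At an unadjusted p-value under 0.05 by the Mantel-Haenszel chi-square test, 1 start window (Ahcy, p = 0.0375, adjusted p = 0.203) and 1 body (Mat2b, p = 0.0263, adjusted p = 0.296) differed, where 21.3% of all start windows and 13.1% of all bodies did. A quasi-binomial test that takes cytosines rather than reads as units gave p = 0.0475 and p = 0.0411 for this pair. It rescales the same chi-square by the spread between cytosines, which stood at its minimum of 1 in both, so it is no separate support. By that test 2903 of all 19476 start windows and 1364 of all 18018 bodies had p-values under 0.05. Within the same cytosines siH19 was higher in 8 of 10 start windows and in 8 of 8 bodies, and with repeats left out it was lower in 4 of those bodies (Ahcyl2, Mtr, Cbs and Bhmt). Over all genes siH19 was higher in 55.1% of start windows and 54.1% of bodies. The median difference of the listed genes was 0.534 points in start windows against 0.0884 points over all start windows, and 1.87 points in bodies against 0.177 points over all bodies. Of the 8 bodies, only that of Mat2b had a 95% interval that lay above 0.

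**Figure D2:**
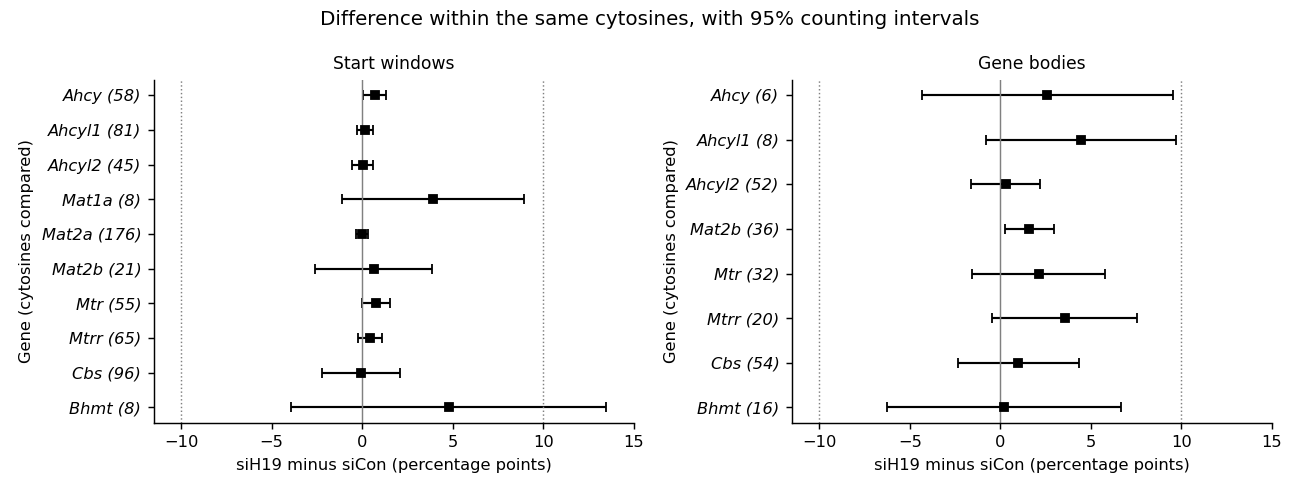
Mantel-Haenszel difference of siH19 minus siCon in percentage points (x axis) for each start window (left) and body (right), with 95% intervals for counting error and the number of cytosines compared in brackets. Dotted lines mark 10 points. Intervals are narrowest for Mat2a, with 176 cytosines, and widest for Bhmt in start windows and for Ahcy in bodies, with 8 and 6 cytosines.

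Ahcy (ENSMUSG00000027597.15, chr2:155059310-155074497, minus strand, GRCm38) encodes SAHH. It was almost free of methylation around its start and almost fully methylated in its body. Its start window, which the annotated gene Gm45609 also overlaps, held 58 cytosines with 3020 reads in siCon and 2881 reads in siH19. The level was 2.38% (Wilson 95% interval 1.90 to 2.99) in siCon and 4.23% (3.56 to 5.03) in siH19. Within the same cytosines the difference was 0.688 points (95% interval 0.0401 to 1.34), a size that 50.4% of all tested start windows did not reach. The sequence around the start is shown from RefSeq (GRCm38.p6), from 250 bases before the start to 30 bases into the first exon, chr2:155074468-155074747. Measured CpGs are in capitals. Those at -69 to -39 bp lie in the last stretch ahead of the first exon, and the last, at 21 to 22 bp, lies in that exon.
Ahcy start: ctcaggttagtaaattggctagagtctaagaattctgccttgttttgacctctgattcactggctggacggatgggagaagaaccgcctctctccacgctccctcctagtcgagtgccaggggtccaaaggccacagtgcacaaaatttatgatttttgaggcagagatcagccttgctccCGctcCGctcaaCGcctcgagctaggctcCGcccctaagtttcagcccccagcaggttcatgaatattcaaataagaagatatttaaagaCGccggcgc
These 280 bases hold 12 CpGs, of which 3 lie in CCGG or TCGA and 5 were measured. Their 10 cytosines were at 0.957% of 418 reads in siCon and 2.63% of 457 reads in siH19.

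Most methylated reads of the Ahcy window, 55 of 72 in siCon and 103 of 122 in siH19, came from 2 CpGs upstream of this stretch. Of the 58 cytosines, 54 lay in the CpG island computed from the sequence, between -69 and 502 bp from the start. They were at 0.580% in siCon and 0.694% in siH19, with a difference of 0.189 points (-0.235 to 0.613), and 31 cytosines of the window had no methylated read in either library. The other 4 cytosines lay outside the island, at -436 to -413 bp, and are the capitals in chr2:155074892-155074951, shown because they mark the edge of the unmethylated region.
Ahcy upstream edge: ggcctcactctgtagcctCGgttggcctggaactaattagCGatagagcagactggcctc
The cytosines of the outer CpG, at -436 and -435 bp, lie in a repeat, and without cytosines in repeats the difference of the whole window was 0.375 points. The 4 cytosines were at 60.4% of 91 reads in siCon and 72.0% of 143 reads in siH19. Their difference was 12.7 points (0.247 to 25.1), but they were set apart after the values were seen and given no test. The siH19 value was higher at each of them. At -436 bp on the minus strand it was 6 of 16 reads in siCon against 24 of 35 reads in siH19, and at -435 bp on the plus strand of the same CpG it was 21 of 29 against 29 of 37. The siH19 library had 1.57 times as many reads at these 4 cytosines and 0.935 times as many in the island, and the summed level of the window was 1.85 points higher in siH19, against 0.688 points within cytosines.

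In the Ahcy body, 6 cytosines in intron 7 and coding exon 8, 10521 to 10625 bp from the start, could be compared. They were at 94.1% of 68 reads in siCon and 96.4% of 83 reads in siH19, with a difference of 2.60 points (-4.32 to 9.53). The lowest level of any of them was 85.7% in siCon and 90.5% in siH19, at different cytosines. None of the 64 cytosines of Ahcy had a p-value under 0.05.

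Ahcyl1 and Ahcyl2 encode relatives of SAHH that are not known to hydrolyse S-adenosylhomocysteine; the Ahcyl1 product, IRBIT, acts on the inositol trisphosphate receptor. Both had unmethylated start windows. Ahcyl1 was at 0.609% in siCon and 0.794% in siH19 over 81 cytosines, a difference of 0.149 points (-0.281 to 0.579), and 55 of those cytosines had no methylated read. Ahcyl2 was at 0.788% and 0.757% over 45 cytosines, a difference of 0.0308 points (-0.544 to 0.605). With the reads of both strands summed, the difference of Ahcyl2 was 0.709 points, and it lay below 0 under other settings.

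The Ahcyl1 body was at 91.0% in siCon and 93.9% in siH19 over 8 cytosines, a difference of 4.47 points (-0.782 to 9.72) that was -0.104 points with CCGG and TCGA cytosines kept. Its only intermediate CpG lay in intron 10, with 4 of 15 reads methylated in siCon and 16 of 24 in siH19 over both strands. The other 6 cytosines, in intron 1 and coding exon 15, were between 88.9% and 100% in siCon.

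The Ahcyl2 body showed the widest gap of summed reads among the bodies and no such gap within cytosines. Its 52 cytosines, all intronic, were at 49.1% of 996 reads in siCon and 61.2% of 1502 reads in siH19, a gap of 12.1 points. Within the same cytosines the difference was 0.308 points (-1.60 to 2.21). At the edge of the start island, 15 cytosines between 1001 and 1145 bp were at 5.23% and 4.61%, with 478 and 499 reads. The other 37 cytosines were at 89.6% and 89.3%, with 518 and 1003 reads, so siH19 held more of its reads at the methylated cytosines. In intron 15, at 139664 and 139669 bp from the start, 1 cytosine of each of 2 CpGs was higher in siH19, at 78.9% and 94.6% (p = 0.0204) and at 85.7% and 100% (p = 0.0106) by Fisher's exact test. Their partners on the opposite strand were at 100% and 100%, and at 100% and 97.3%. These lie in a repeat. The cytosines at 139664 and 139669 bp had 38 and 28 reads in siCon and 74 and 56 in siH19. On the same strands, those at 139645 and 139646 bp had 19 and 14 reads in siCon and 37 and 28 in siH19. Whether molecules were counted more than once was not tested, and if they were, these p-values are too small.

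Methionine adenosyltransferases join methionine and ATP into S-adenosylmethionine. Mat1a encodes the liver form, Mat2a the catalytic subunit of other tissues and Mat2b its regulatory subunit. The Mat2a start window was the most fully read of the 10, with 176 cytosines and 6084 and 4421 reads. It was at 0.773% (0.581 to 1.03) in siCon and 0.746% (0.532 to 1.05) in siH19, with a difference of -0.0193 points (-0.345 to 0.306). Of these cytosines 124 had no methylated read, and the most methylated were those at -893 to -751 bp, at 9.21% of 152 reads in siCon and 6.36% of 173 reads in siH19. The non-coding gene Particl lies in the same window and shares these values. No cytosine of the Mat2a or Mat1a body passed the minimum of 5 reads: 3 cytosines of each body had any read, and none was read in both libraries.

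Mat1a, the gene of the liver enzyme, was also little methylated in its start window in siCon, at 2.72% of 184 reads over 8 cytosines, although no CpG island was computed at its start. It was at 9.70% of 134 reads in siH19. The difference was 3.90 points (-1.12 to 8.92), and with the cytosines of CCGG and TCGA kept it was -2.33 points over 19 cytosines. The excess sat at 1 CpG in the untranslated part of exon 1, 122 to 123 bp from the start, where 0 of 20 reads were methylated in siCon, which allows a level of up to 15%, and 12 of 54 in siH19. The other 6 cytosines were between 0% and 6.90% in siCon and between 0% and 9.09% in siH19. The 8 cytosines are 4 CpGs, each read on both strands.

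Mat2b (ENSMUSG00000042032.13, chr11:40679314-40695203, minus strand) has 2 annotated starts, and their methylation differed in both libraries. The start window of the gene lies at the outer start, where a CpG island of 433 bp held 18 measured cytosines. They were at 17.1% of 919 reads in siCon and 18.7% of 1265 reads in siH19, with a difference of 1.67 points (-1.59 to 4.92). The inner start, 2521 bp downstream by RefSeq, lies in an island of 950 bp that falls in the body. Its 30 cytosines were at 1.61% of 871 reads and 2.39% of 1045 reads, a difference of 1.32 points (0.181 to 2.45). An intronic stretch of each island is shown, chr11:40694713-40694797 at the outer and chr11:40692381-40692466 at the inner start, with measured CpGs in capitals, to set the partly methylated stretch beside the nearly unmethylated one.
Mat2b outer start: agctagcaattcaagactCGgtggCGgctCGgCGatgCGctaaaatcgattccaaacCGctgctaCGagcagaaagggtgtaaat
Mat2b inner start: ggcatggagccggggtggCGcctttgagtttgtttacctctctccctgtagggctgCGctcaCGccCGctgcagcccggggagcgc
The outer stretch was at 13% of 545 reads in siCon and 22.0% of 660 reads in siH19, and the other 6 cytosines of that island, 325 to 346 bp from the start, at 23.0% of 374 and 15.2% of 605 reads. The inner stretch was at 0.926% of 216 reads and 4.79% of 397 reads, and the other 22 cytosines of its island at 1.83% of 655 and 0.926% of 648 reads. In both islands the printed stretch and the remainder thus differed in opposite directions. Single cytosines of the outer island ranged from 0% to 37.5% in siCon and from 9.68% to 42.6% in siH19, so no cytosine of it was fully methylated.

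The difference within the whole Mat2b start window was 0.638 points (-2.60 to 3.88), with single cytosines on both sides of 0. On the plus strand at 341 bp the level was 27.9% (24 of 86 reads) in siCon and 10.7% (15 of 140) in siH19, with p = 0.00175 by Fisher's exact test, while the same CpG on the minus strand was at 18.8% and 22.0%. On the minus strand at 424 bp it was 4.60% and 14.9%, against 9.23% and 9.68% on the plus strand, with p = 0.0213 by Fisher's exact test on the minus strand. Beyond the island, 3 minus-strand cytosines at -983 to -960 bp were at 65.9% of 44 reads and 41.9% of 43 reads. In the coding part of the gene, 6 cytosines of exons 2 and 5 were at 85.1% and 88.9%.

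**Figure D3:**
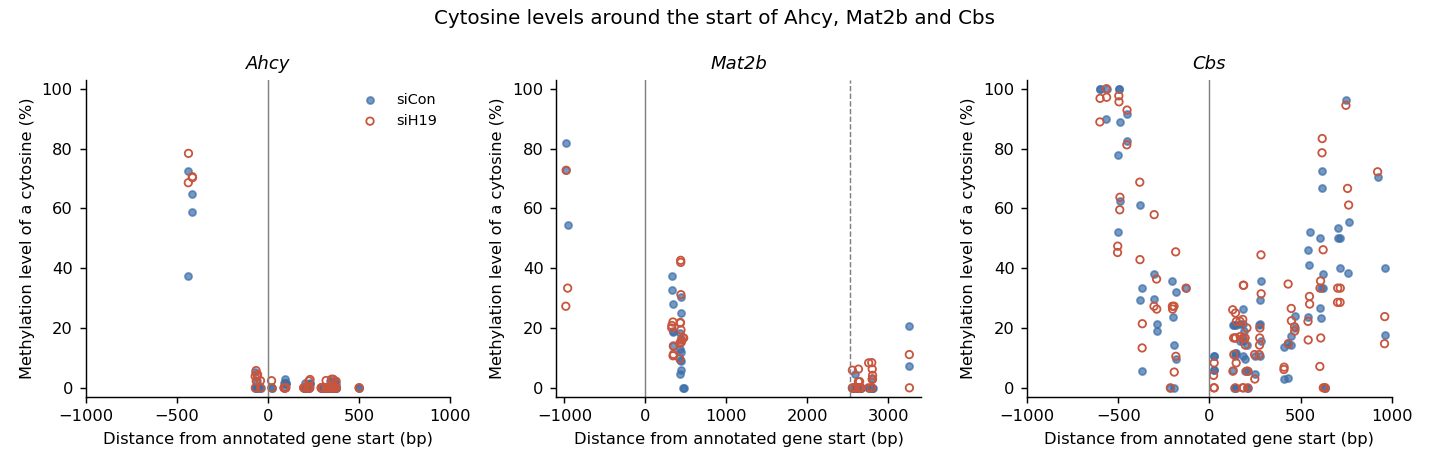
Methylation level of each cytosine (y axis, percent) against its distance from the annotated gene start (x axis, bp) for Ahcy, Mat2b and Cbs. Filled points are siCon and open points are siH19, solid lines mark the gene start and the dashed line marks the inner start of Mat2b. In Ahcy the 54 island cytosines lie near 0 in both libraries, in Mat2b the cytosines near the outer start lie above those at the inner start, and in Cbs levels rise on both sides of the start.

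Homocysteine is remethylated by methionine synthase (Mtr), which takes the methyl group from folate and is kept active by methionine synthase reductase (Mtrr), or by betaine-homocysteine methyltransferase (Bhmt), an enzyme mostly of liver and kidney. The Mtr start window was at 1.44% in siCon and 1.56% in siH19 over 55 cytosines, a difference of 0.766 points (-0.00294 to 1.53). Its body had 458 methylated reads of 547 in siCon and 616 of 770 in siH19 over 32 cytosines. Summed reads and single cytosines went opposite ways here: the difference of summed reads was -3.73 points while the difference within cytosines was 2.12 points (-1.54 to 5.79). Intron 31 was at 97.8% and 96.6%, and intron 20, the least methylated intron of the body with at least 5 cytosines, had 35 methylated reads of 64 and 104 of 160.

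The Mtrr start window was at 2.77% in siCon and 3.24% in siH19 over 65 cytosines, a difference of 0.430 points (-0.220 to 1.08). The gene Fastkd3 starts in the same window. Of these 65 cytosines 1 carried 41 of the 56 methylated reads in siCon and 37 of the 59 in siH19: at 211 bp from the start, on the plus strand, 41 of 41 reads in siCon and 37 of 39 reads in siH19 were methylated, while on the minus strand of the same CpG 0 of 29 and 0 of 22 were. This CpG is in capitals in the 30 bases chr13:68581924-68581953, in the untranslated part of exon 1, written on the gene's strand.
Mtrr exon CpG: gagcacttgggaggCGgaccgcggtggggt
The difference between strands at this CpG was present in both libraries and was larger than any difference between libraries in the Mtrr window. The Mtrr body was at 76.6% of 474 reads and 71.8% of 450 reads over 20 cytosines, with a difference within cytosines of 3.55 points (-0.450 to 7.56). In intron 4, 0 of 38 and 0 of 78 reads were methylated, while intron 6 was at 88.5% and 93.1% and intron 9 at 91.1% and 91.2%.

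Bhmt, which has no CpG island at its start, was read thinly in siH19. Its start window held 8 cytosines with 205 reads in siCon and 66 reads in siH19. The level was 7.80% (4.86 to 12.3) and 13.6% (7.34 to 23.9), a difference of 4.78 points (-3.93 to 13.5), the widest interval of the 10 start windows. The body was at 48.1% and 46.9% over 16 cytosines, a difference of 0.176 points (-6.28 to 6.64). Levels inside it were uneven, with coding exon 6 at 67.7% and 66.4% and intron 7 at 13.8% and 10.7%.

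Cbs (ENSMUSG00000024039.15, chr17:31608894-31637238, minus strand) encodes cystathionine beta-synthase, which commits homocysteine to transsulfuration and so to cysteine and glutathione. Its start island was partly methylated, with 32 of 96 window cytosines between 20% and 80% in both libraries. In the start windows of the other 9 genes together there were 11 such cytosines of 517. The start region from RefSeq, chr17:31637176-31637455, is shown with its 7 measured CpGs in capitals.
Cbs start: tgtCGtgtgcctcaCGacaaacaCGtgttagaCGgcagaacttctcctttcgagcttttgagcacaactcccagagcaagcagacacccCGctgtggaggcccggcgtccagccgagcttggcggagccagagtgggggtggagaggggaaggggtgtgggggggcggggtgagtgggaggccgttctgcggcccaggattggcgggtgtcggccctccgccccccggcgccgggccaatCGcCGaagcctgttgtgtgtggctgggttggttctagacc
Its 12 measured cytosines were at 15% of 246 reads in siCon and 14.4% of 208 reads in siH19. The full 300-base RefSeq start region of Cbs holds 22 CpGs and that of Ahcy 13, against a median of 7 over the 32851 mouse start regions, and 23.1% and 37.9% of those hold at least as many. The more methylated start was thus not the poorer in CpGs.

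Methylation of the Cbs window was lowest just after the start and rose on both sides. In bins of 250 bp it was 80.4% in siCon and 63.6% in siH19 between -750 and -500 bp, 56.5% and 70.6% between -500 and -250 bp, and 17.8% and 21.8% in the bin before the start. It was 11.8% and 14.1% in the first 250 bp of the gene, 17.2% and 20.3% in the next bin and 42.7% and 30.5% between 500 and 750 bp. Over the whole window the summed reads were at 30.2% of 2398 in siCon and 34.9% of 2904 in siH19. Within the 96 cytosines the difference was -0.0895 points (-2.24 to 2.06). As in the Ahcyl2 body, siH19 had more of its reads at cytosines with high levels in both libraries, with 544 reads against 329 between -500 and -250 bp. The Cbs body, with 54 cytosines, was at 51.5% and 55.6%, a difference of 0.997 points (-2.34 to 4.33). Exons of the body were at 59.1% and 67.6%, with a difference within cytosines of -1.47 points (-6.59 to 3.66), and introns at 43.3% and 41.4%, with a difference of 3.64 points (-0.499 to 7.78). In intron 3, 0 of 48 reads in siCon and 3.13% of 64 reads in siH19 were methylated.

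Single cytosines were compared by Fisher's exact test. Of the 837 cytosines 14 had a p-value under 0.05, 10 higher and 4 lower in siH19, where 2.53% of all cytosines did, and these 14 lay in Cbs (10), Ahcyl2 (2) and Mat2b (2). A cytosine was called strongly changed when its p-value was under 0.05 and its difference 33 points or more. There were 4 of these, against 0.986% of all cytosines in either direction and 0.519% in the higher direction. All 4 lay in Cbs and were higher in siH19, and 2 of them stayed without the cytosines in repeats. After adjustment over all cytosines 1 passed, also in Cbs, where 0.00648% of all cytosines did. With the reads of both strands of a CpG summed, none passed.

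That 1 cytosine lay in intron 1 of Cbs, in the start island 432 bp from the start (chr17, position 31636806, minus strand). It was methylated in 2 of 58 reads (3.45%, 0.951 to 11.7) in siCon and in 34 of 98 reads (34.7%, 26.0 to 44.5) in siH19. The difference was 31.2 points, with an adjusted p-value of 0.0440 by Fisher's exact test. That test takes every read as a separate molecule. Whether molecules were counted more than once at this cytosine was not tested, and if they were, the p-value is too small. On the plus strand of the same CpG 10 of 69 reads (14.5%) and 17 of 115 reads (14.8%) were methylated. Its surroundings, chr17:31636777-31636834, are shown with this CpG in capitals.
Cbs intron 1 CpG: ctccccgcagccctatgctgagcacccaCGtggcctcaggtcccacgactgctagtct
The next CpG into the intron, 449 bp from the start on the minus strand, was at 17.2% and 26.5%.

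A pair of the strongly changed cytosines lay 11 bp apart on the plus strand in coding exon 13, with the same read totals in each library, so both may have been read in the same molecules and are not counted as separate evidence. At position 31617212 the level was 2 of 23 reads (8.70%) in siCon and 11 of 19 reads (57.9%) in siH19, with p = 0.000841 by Fisher's exact test. At position 31617201 it was 3 of 23 reads (13%) and 12 of 19 reads (63.2%), with p = 0.00114 by Fisher's exact test. On the minus strand the same CpGs were methylated in 6 of 30 and 2 of 12 reads, and in 12 of 31 and 4 of 11 reads. Both CpGs are in capitals in chr17:31617173-31617241.
Cbs exon 13 CpGs: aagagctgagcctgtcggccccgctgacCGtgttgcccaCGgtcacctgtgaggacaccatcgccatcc
A further CpG of the same stretch with the same read totals, at position 31617179, was lower in siH19 on that strand, at 78.3% and 57.9%.

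The strongly changed cytosine with the next lowest p-value lay in intron 10, in a repeat, at position 31620208 on the plus strand, in capitals in chr17:31620180-31620237.
Cbs intron 10 CpG: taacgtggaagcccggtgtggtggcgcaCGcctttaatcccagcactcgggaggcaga
It was methylated in 0 of 13 reads in siCon, which allows a level of up to 23.1%, and in 5 of 9 reads (55.6%) in siH19, with p = 0.00478 by Fisher's exact test. The last of the 4, named here after its values were seen, lay in a repeat in the untranslated part of exon 17, at position 31609069. It was methylated in 4 of 9 reads (44.4%) and in 32 of 38 reads (84.2%), with p = 0.0225 by Fisher's exact test. The opposite strand of each had only 2 reads in siCon, too few to compare.

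Where the other strand of the same CpG was covered, the differences at these cytosines were not matched on it. CpG methylation is normally placed on both strands of a CpG, so the opposite strand is another reading of the same site from other reads. Of the 14 cytosines with p-values under 0.05, 12 had a covered partner and none of the 12 partners had a p-value under 0.05. The difference at the partner had the same sign in 4, the opposite sign in 7 and was 0 in 1. The median size of the difference was 28.3 points at the 12 cytosines and 2.13 points at their partners, where the largest was 9.02 points. The 14 cytosines had been picked for their difference and the partners had not.

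**Figure D4:**
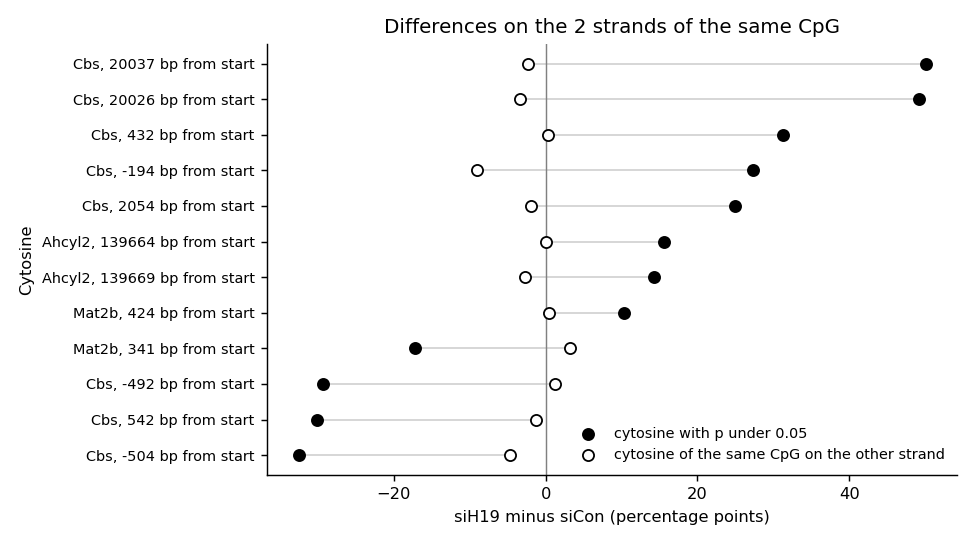
Difference of siH19 minus siCon in percentage points (x axis) at the 12 cytosines with an unadjusted p-value under 0.05 and a covered opposite strand (filled points, 1 per line) and at the partner cytosine of the same CpG (open points). Partners lie within 9.02 points of 0.

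The difference between strands within 1 library gave a further measure of spread. In the 8 start windows with enough CpGs read on both strands, the median size of the library difference was 0.513 points, and that of the strand difference was 0.632 points in siCon and 1.19 points in siH19. In the 6 such bodies it was 1.14 points between libraries, and 1.27 and 3.21 points between strands. The library difference was smaller than the strand difference of at least 1 library in 6 of the 8 start windows and in 5 of the 6 bodies, and smaller than those of both libraries in 3 and 4. No listed gene reached the 10-point call for a strand difference. Over all genes 1.33% of start windows in siCon and 1.11% in siH19 did, with 2.12% and 2.26% of bodies. The Mtrr start window had the clearest strand difference of the 10 genes, with minus below plus by -5.29 points in siCon and -6.55 points in siH19 (adjusted p = 1.03e-08 and 6.72e-07 by the Mantel-Haenszel chi-square test).

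Of 26 further genes of folate, betaine, methionine salvage and polyamine metabolism, 22 start windows and 21 bodies could be tested and none was called. The siH19 level was higher in 15 of the 22 start windows and in 11 of the 21 bodies. With no minimum difference, 7.39% of all start windows had adjusted p-values under 0.05. Of the 22 start windows of these further genes 5 did, and none of those of the 10 listed genes. The 5 are 4 distinct windows, because Bhmt2 and Dmgdh share 1 that is counted for each gene here. By the same chi-square test, and among the genes of this list, the largest positive start window differences were those of Sms, the X-linked spermine synthase gene, at 20.3% and 26.1% (6.92 points, 4.86 to 8.98, adjusted p = 2.56e-08), and of Bhmt2 and Dmgdh, neighbours of Bhmt that share 1 window, at 36.8% and 42.9% (6.13 points, adjusted p = 0.0467). Bhmt2 remethylates homocysteine from S-methylmethionine and Dmgdh oxidises the dimethylglycine that Bhmt releases. The largest negative ones were those of Cth, the transsulfuration enzyme after Cbs, at 5.30% and 3.53% (-1.91 points, -4.65 to 0.832), and of Shmt2, which loads folate in mitochondria. Shmt2 was at 1.44% of 348 reads in siCon and 0% of 722 reads in siH19 (-1.61 points, -2.96 to -0.25, chi-square test, adjusted p = 0.0140). The quasi-binomial test gave p = 0.179 for the Shmt2 window, 0.0384 for that of Bhmt2 and Dmgdh and 4.80e-10 for that of Sms. Among the bodies Pemt (4.00 points) and Mthfd2l (3.10 points) were highest and Ada (-2.73 points) and Mthfd1 (-2.44 points) lowest, with adjusted p-values between 0.362 and 0.919.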

How the data were processed

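CpG methylation was measured in 1 siCon and 1 siH19 library. Per the methods, the authors aligned the reads with Bismark inside a service provider's pipeline and trimmed filled-in bases; the submitters' processing notes name bcl2fastq 1.8.4 and the build mm10. The deposited files gave each CpG cytosine and strand a text field with methylated and total reads, the raw values used here and held in another unit than a plain number. The authors' score, a rounded form of the methylated fraction, served only as a check and gave the same fraction in 100% of lines. None of 6041258 positions on the assembled chromosomes was off a CpG of GRCm38.

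Gene models came from the GENCODE vM21 basic annotation and start regions from RefSeq. Cytosines read 5 times or more in both libraries, outside CCGG and TCGA, were kept with strands apart. Start windows ran 1 kb to both sides of the gene start and bodies were the rest of the gene. Regions with at least 5 cytosines were compared by the Mantel-Haenszel chi-square test stratified by cytosine, with a call at an adjusted p-value under 0.05 and 10 points. Single cytosines were compared by Fisher's exact test (two-sided), with strong changes at 33 points. All p-values were adjusted by the Benjamini-Hochberg method over all regions or cytosines of the genome. CpG islands were computed by joining 200 bp windows whose GC content reached 50% and whose CpG count reached 0.6 of that expected from base composition. Levels carry Wilson 95% intervals, and a count of 0 was taken to allow 3 reads. Reads carried no molecular identifiers, neighbouring cytosines share reads, and intervals, floors and p-values therefore cover at most the counting error of independent reads. Read totals jumped between close cytosines. On the plus strand of Ahcy they were 38 in siCon and 82 in siH19 at 300 bp, and 19 and 41 at 326 bp. Whether molecules were counted more than once at a cytosine was not tested. If they were, intervals are too narrow and p-values too small. Removal of duplicate reads was not stated.

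All 10 listed genes were named. Cytosines were named where the adjusted p-value was under 0.05 or, up to 3 per gene, among the strongly changed by lowest p-value, and related genes as the 2 highest and 2 lowest differences where none was called. 1 related gene is not reported here. The genes, lists and tests were chosen with earlier results of these data known. Python 3.11.15, numpy 2.4.6, pandas 2.3.3, scipy 1.17.1 and numba 0.67.0 were used. The tests were tested on data simulated with reads drawn independently at each cytosine. That simulation holds no reads shared by neighbouring cytosines and no molecules counted more than once, so it cannot show how the tests behave with them. Alternatives changed the read minimum, the site, strand and repeat filters, the window, the weighting and the thresholds.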

Additional observations from a re-analysis of the deposited data

How the results depend on the processing

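The Ahcy start window and body were higher in siH19 and not called under every alternative run, at 0.375 to 1.85 points and 0.00400 to 3.33 points. Both lowest values came from fewer or other cytosines, without repeats for the window and with the whole gene for the body. No start window of the 10 genes was called under any alternative. The count of strongly changed cytosines, 4 as reported, was 15 with CCGG and TCGA cytosines kept and 10 at a minimum difference of 20 points. It was 2 at 10 reads per library, 2 without repeats and 3 with the reads of both strands summed. It was 0 where the opposite strand had to be covered and to move the same way. That setting drops the intron 10 and exon 17 cytosines of Cbs for coverage alone, as their opposite strands had 2 reads in siCon. The count with adjusted p-values under 0.05 was 5 with CCGG and TCGA cytosines kept and 0 with strands summed. Reads summed over a region and tested by Fisher's exact test called 1 body (Ahcyl2, 12.1 points, adjusted p = 6.93e-08) and 2 related regions. By this summed-read Fisher's exact test the Ahcy window (1.85 points) had an adjusted p-value of 0.00125. The Cbs window (4.68 points) had 0.00385, and both stayed uncalled because they were under 10 points. That test adds up reads whatever cytosine they came from, so it moves when the libraries spread their reads differently.

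Several differences changed sign, larger ones such as those of the Mat1a window and the Mtrr, Ahcyl1 and Mtr bodies included. With reads summed they were -0.0319 (Ahcyl2 window), 4.68 (Cbs window), -1.25 (Bhmt body), -3.73 (Mtr body) and -4.80 points (Mtrr body). Without repeats they were -0.0910 (Ahcyl2 window), -0.709 (Ahcyl2 body), -1.90 (Bhmt body), -0.741 (Cbs body) and -1.37 (Mtr body). With the sites kept they were -0.104 (Ahcyl1 body), -0.398 (Bhmt body), 0.364 (Cbs window), -2.33 (Mat1a window) and 0.0692 (Mat2a window). At 10 reads they were 0.119 (Cbs window), 0.178 (Mat2a window) and -1.19 (Cbs body). Unweighted means gave -0.0520 (Ahcyl2 window), -1.52 (Ahcyl2 body) and -0.124 (Mat2b window). Strands summed gave -0.622 (Ahcyl2 body) and -0.165 (Bhmt body), a window of 500 bp gave -0.118 (Ahcyl1) and 2.44 (Cbs), and windows at every transcript start gave -0.161 (Ahcyl2). The cause of the other changes was not tested.

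No paired analysis was possible because each group had 1 library, with none to leave out. Depth limited Mat1a, Bhmt and the bodies most, and no cytosine of the Mat1a and Mat2a bodies was compared.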
